A study of Mus musculus with 6 samples.

Results

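The genes described here carry the interleukin-6 (IL-6) signal into the liver cell nucleus. They are 10 named genes: the receptor subunits Il6ra, Il6st, Lifr and Osmr, the kinases Jak1 and Jak2, the transcription factor Stat3, the feedback inhibitor Socs3, and the C/EBP transcription factors Cebpb and Cebpd. They were taken by symbol from the 55487 genes on which liver reads were counted, and all 10 passed the filter on low counts that left 14046 genes for testing. Livers of 6 wild-type male mice on a normal chow diet were sequenced at 17 weeks of age, with 1 library per mouse and 1 batch label for all. GalNAc-siNC, a control siRNA, had been injected under the skin of 3 mice, and GalNAc-siRnf10, an siRNA against Rnf10 (named GalNAc-siRnf10-2 in the paper), into 3 others. They are called control mice and siRnf10 mice below. GalNAc is a sugar ligand that is taken up by a receptor on hepatocytes, whereas the RNA came from whole liver, so other liver cells are part of each library. No untreated or vehicle-injected mouse is among these libraries.

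In this pathway, IL-6 binds the receptor chain encoded by Il6ra, and the complex recruits the shared signal-transducing chain encoded by Il6st. The receptors for leukemia inhibitory factor (Lifr) and oncostatin M (Osmr) pair with the same shared chain. Receptor-bound JAK kinases then phosphorylate STAT3, which enters the nucleus and induces acute phase genes together with C/EBP factors, and which also induces Socs3, whose protein blocks the receptor complex. In the liver, this pathway is best known for the acute phase response, in which hepatocytes raise the output of plasma proteins such as serum amyloid A and fibrinogen.

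Total counts were between 26854377 and 33058645 per library, so that 3 counts were at most 1.12e-05% of a library, which covers counting error only. Hepatocyte genes such as Alb and Apob were abundant in every library, as the tissue label says. Rnf10, the siRNA target, had 3868.5, 4536 and 4040 normalized counts with GalNAc-siNC and 1738, 1820.5 and 1793 with GalNAc-siRnf10, so every library matched its label. Its log2 fold change was -1.22 (adjusted p = 3.29e-09, edgeR). GalNAc-siNC mouse 1 stood apart from the other mice of its group, with a chi-square per gene of 30.7 and 30.0 against them, whereas the pair of mice 2 and 3 had 10.3 and the pairs of GalNAc-siRnf10 mice had between 4.70 and 5.37. In the 10% of genes richest in G and C, that library was 0.17 below its group mean on the log2 scale, and mouse 2 of the same group was 0.15 above it (medians over genes).

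The promoter of Socs3 held a match to the STAT motif TTCNNNGAA, in which N is any base. The motif reads the same on both strands, and it was searched in the 250 bases before the RefSeq start of each gene (GRCm38.p6). Of 32851 such windows in all, 7.02% held it. Of the 9 genes of this pathway with a window, which had 10 windows, Socs3 was the only one with a match. A C/EBP motif, TTGCNCAA on either strand, was in 2.61% of all windows and in none of these 10. Among 27 acute phase genes known as outputs of the pathway, 22 had a window, and 6 of their 25 windows held the STAT motif and 8 the C/EBP motif. Fga and Fgb held both motifs, with no overlap between them. A match is a run of letters and does not show that a factor binds there. The stretches below show Socs3 and 5 of the acute phase genes. Capitals mark the STAT motif in Socs3, Steap4, Itih4 and Hamp and the C/EBP motif in Saa1 and Orm2.
Socs3: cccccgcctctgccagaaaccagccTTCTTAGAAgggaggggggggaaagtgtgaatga
Steap4: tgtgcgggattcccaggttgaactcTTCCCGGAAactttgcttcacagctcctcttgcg
Itih4: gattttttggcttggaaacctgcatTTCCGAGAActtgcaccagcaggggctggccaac
Hamp: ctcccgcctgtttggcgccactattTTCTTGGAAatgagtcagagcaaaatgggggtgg
Saa1: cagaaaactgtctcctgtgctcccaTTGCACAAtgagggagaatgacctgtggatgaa
Orm2: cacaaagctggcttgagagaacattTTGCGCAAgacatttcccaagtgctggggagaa
The Socs3 stretch lies on the minus strand at chr11:117969487-117969545, with the motif centred 150 bases before the start, inside the annotated Socs3 gene but in no exon of it. That of Steap4 is on the plus strand at chr5:7960331-7960389, 112 bases before the start, and overlaps an exon of Gm30835 on the other strand. That of Itih4 is on the plus strand at chr14:30886400-30886458, 47 bases before the start. That of Hamp is on the minus strand at chr7:30944093-30944151, 93 bases before the start, within Gm44662 on the other strand but in no exon. That of Saa1 is on the minus strand at chr7:46743130-46743187 and that of Orm2 on the plus strand at chr4:63362304-63362361.

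Of the 10 genes, 3 differed between treatments (adjusted p below 0.05, from the quasi-likelihood test of edgeR with Benjamini-Hochberg adjustment over all tested genes). Socs3 and Stat3 fell and Il6ra rose in GalNAc-siRnf10-treated mice. Among all tested genes, 14.0% passed this threshold, 6.71% higher and 7.28% lower. The median log2 fold change of the 10 genes was -0.15, against 0.0022 over all tested genes. In 6 of the 10 the values of the groups did not overlap, against 32.8% of all tested genes. Il6st, Jak1, Stat3 and Socs3 were lower in every GalNAc-siRnf10-treated mouse, and Il6ra and Cebpb higher. Over all tested genes, 16.4% were lower and 16.5% higher without overlap. In bulk tissue, a lower value can come from fewer cells of a type or from less RNA per cell, and these cannot be told apart.

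**Figure D1:**
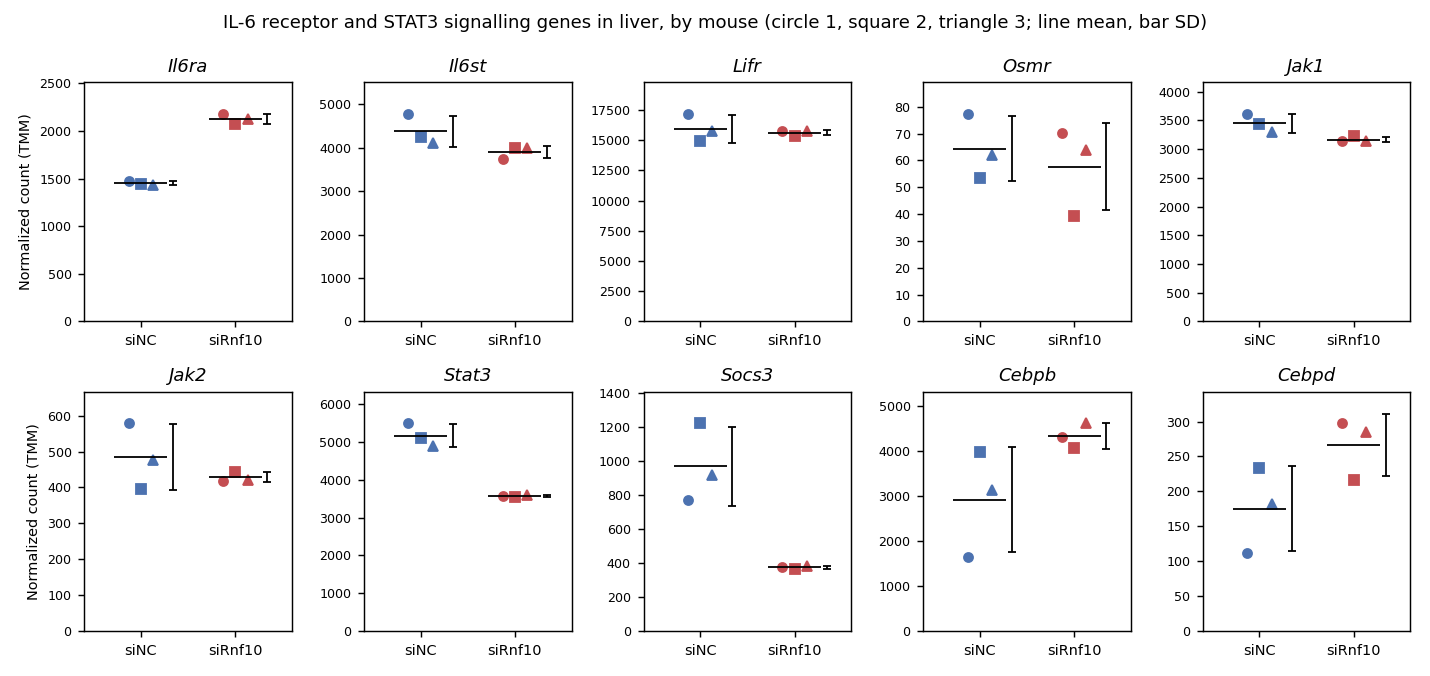
Normalized counts (y axes, TMM scale, each from 0) of the 10 genes in 3 GalNAc-siNC-treated (blue) and 3 GalNAc-siRnf10-treated mice (red), with 1 marker per mouse, a line at the group mean and a bar of 1 SD beside it. Socs3 lay between 363 and 384 in the red group and between 770 and 1225 in the blue group, and Il6ra lay above 2000 only in the red group.

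Il6ra (ENSMUSG00000027947), the chain that binds IL-6, lies on the minus strand of chromosome 3 from 89864059 to 89913196 (GRCm38, as are all positions here). In normalized counts it had 1475.5, 1442 and 1434 in control mice and 2184, 2077 and 2130 in siRnf10 mice. The groups were far apart for their spread, with means of 1450 ± 22.2 and 2130 ± 53.5 (SD, n = 3 mice per group). Its log2 fold change was 0.55 (standard error 0.0668, 95% interval from 0.41 to 0.69, adjusted p = 1.76e-05, edgeR), a 1.47-fold higher level. It ranked 807th from the highest of the 14046 tested genes.

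The other receptor chains did not pass the test. Il6st, the shared chain, on the plus strand of chromosome 13 from 112464070 to 112510086, had 4788, 4239 and 4098 normalized counts with GalNAc-siNC and 3733, 3990 and 3987 with GalNAc-siRnf10. The groups did not overlap, but the adjusted p was 0.131 (edgeR, unadjusted p = 0.0291), with a log2 fold change of -0.16 and a 95% interval from -0.31 to -0.02. Lifr (chromosome 15, plus strand, 7090614 to 7197489) had 17202, 14910 and 15755 with GalNAc-siNC and 15796, 15371 and 15718 with GalNAc-siRnf10. The groups overlapped, and the log2 fold change of -0.03 had an interval from -0.15 to 0.09, which leaves out a difference as large as that of Il6ra. Osmr (chromosome 15, minus strand, 6813577 to 6874969) was the least counted of the 10 genes, with 77.5, 53.6 and 62.2 in the GalNAc-siNC group and 70.1, 39.2 and 63.9 in the GalNAc-siRnf10 group. At this depth its interval was wide, from -0.71 to 0.36 around a log2 fold change of -0.17.

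Within each library, the ratio of Il6ra to Il6st does not depend on the scaling between libraries. In counts per kilobase of gene length, Il6ra was 0.396, 0.437 and 0.449 of Il6st in control mice and 0.751, 0.668 and 0.686 of it in siRnf10 mice. The ratio was thus 1.64-fold higher in the second group, without overlap (two-sided exact permutation, p = 0.1, which is the lowest value possible with 3 mice in each group). The mRNA of the IL-6-binding chain therefore stood closer to that of the shared chain after GalNAc-siRnf10, though still below it in every mouse.

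Neither kinase was called. Jak1, on the minus strand of chromosome 4 from 101152367 to 101265282, had 3618, 3437 and 3294 normalized counts with GalNAc-siNC and 3139, 3222 and 3135 with GalNAc-siRnf10. Its groups did not overlap, with a log2 fold change of -0.12, an interval from -0.26 to 0.01 and an adjusted p of 0.223 (edgeR). Jak2, on the plus strand of chromosome 19 from 29251828 to 29313080, had 580, 397 and 476 with GalNAc-siNC and 419, 444 and 422 with GalNAc-siRnf10. All 3 values of the second group fell within the range of the first, and the log2 fold change was -0.18 (interval from -0.44 to 0.08, adjusted p = 0.382, edgeR). Without GalNAc-siNC mouse 1, the highest of all 6, the log2 fold change was -0.03.

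Stat3 (ENSMUSG00000004040), the transcription factor at the centre of the pathway, lies on the minus strand of chromosome 11 from 100885098 to 100939540. In normalized counts it had 5511, 5119 and 4891 in control mice and 3580, 3549 and 3606 in siRnf10 mice. The second group was tight, at 3578 ± 28.4 against 5174 ± 314 (SD, n = 3 mice per group), and every value lay below the first. The log2 fold change was -0.53 (standard error 0.0629, interval from -0.67 to -0.40, adjusted p = 1.42e-05, edgeR), which was 30.8% lower. Its exons overlap those of Stat5a on the opposite strand by 72 bases. Stat5a had at most 623 counts in any library, fewer than the difference between the Stat3 means. Set against Jak1 in the same library, in counts per kilobase, Stat3 was 1.16, 1.13 and 1.13 with GalNAc-siNC and 0.865, 0.836 and 0.872 with GalNAc-siRnf10. By this measure Stat3 was above Jak1 in every mouse of the first group and below it in every mouse of the second. The two-sided exact permutation of the ratio gave p = 0.1, the smallest possible here. Without division by length, Stat3 was above Jak1 in every mouse of both groups, so the crossing depends on the lengths used.

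Socs3 (ENSMUSG00000053113), which encodes the feedback inhibitor of the IL-6 receptor complex, differed most. It lies on the minus strand of chromosome 11 from 117966079 to 117970047, and its promoter stretch is printed above. It had 770, 1225 and 917 in control mice and 375, 363 and 384 in siRnf10 mice. Even the lowest GalNAc-siNC-treated mouse had more than the highest GalNAc-siRnf10-treated mouse. The means were 971 ± 233 and 374 ± 10.6 (SD, n = 3 mice per group), a 2.59-fold lower level, with a log2 fold change of -1.37 (standard error 0.152, interval from -1.71 to -1.04, adjusted p = 0.000134, edgeR). It ranked 44th from the lowest of the 14046 tested genes. The drop in Socs3 exceeded that in Stat3: in counts per kilobase, Socs3 was 0.46, 0.789 and 0.618 of Stat3 with GalNAc-siNC and 0.345, 0.337 and 0.351 of it with GalNAc-siRnf10. The mean ratio was 1.81-fold lower in the second group, without overlap (two-sided exact permutation, p = 0.1, the smallest possible here). Against Il6ra, in counts per kilobase, Socs3 was 1.56, 2.54 and 1.91 with GalNAc-siNC and 0.514, 0.523 and 0.54 with GalNAc-siRnf10. By this measure Socs3 was above Il6ra in all mice of the first group and below it in all mice of the second. Without division by length, Socs3 was below Il6ra in every mouse of both groups. The ratio of Socs3 to Il6ra was 3.81-fold lower in the second group, a comparison that gene length does not change.

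**Figure D2:**
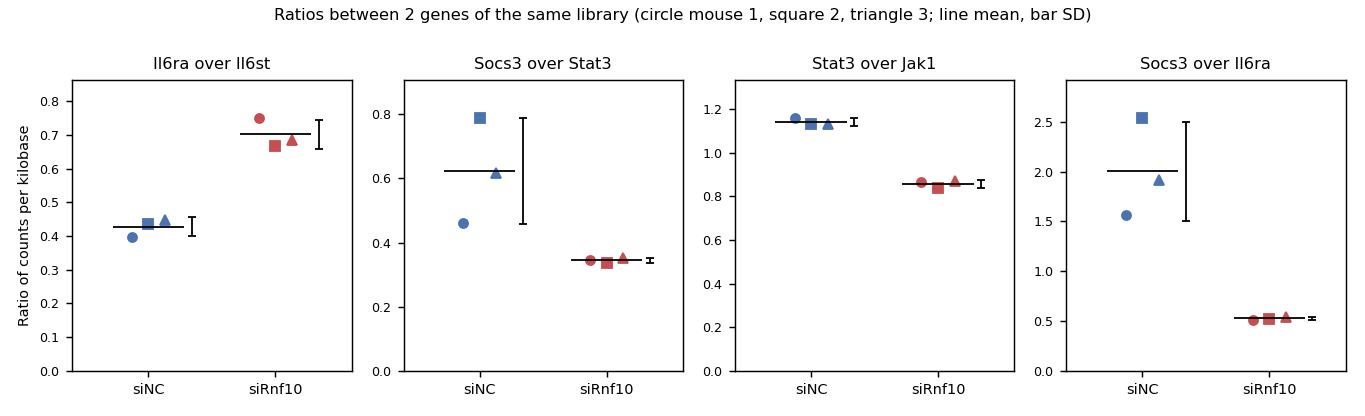
Ratios of counts per kilobase between 2 genes of the same library (y axes, from 0) in GalNAc-siNC-treated (blue) and GalNAc-siRnf10-treated mice (red), with 1 marker per mouse, a line at the group mean and a bar of 1 SD. Il6ra over Il6st was higher and the other 3 ratios were lower in every GalNAc-siRnf10-treated mouse. Stat3 over Jak1 and Socs3 over Il6ra crossed 1, which depends on the division by gene length.

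Neither C/EBP factor was called, although both means were higher after GalNAc-siRnf10. Cebpb, which with STAT3 drives acute phase genes, is a single-exon gene on the plus strand of chromosome 2 from 167688915 to 167690418. It overlaps Tmem189 on the opposite strand by 312 bases. Tmem189 had between 223 and 315 counts per library, and any sharing of reads was not tested. Cebpb itself had 1648, 3966 and 3141 normalized counts with GalNAc-siNC and 4302, 4065 and 4621 with GalNAc-siRnf10. The groups did not overlap, but the first was widely spread, and the log2 fold change of 0.57 had an interval from -0.39 to 1.53 (adjusted p = 0.402, edgeR). Without GalNAc-siNC mouse 1 the log2 fold change was 0.28 and passed the test (adjusted p = 0.0466, edgeR), whereas the other alternatives gave adjusted p-values from 0.116 to 0.593. Cebpd, likewise a single-exon gene, on the plus strand of chromosome 16 from 15887286 to 15891031, had 111, 233 and 182 with GalNAc-siNC and 298, 216 and 285 with GalNAc-siRnf10. The lowest value of the second group fell below the highest of the first. Its log2 fold change was 0.61 (interval from 0.02 to 1.21, adjusted p = 0.175, edgeR). The test was passed with DESeq2 (adjusted p = 0.0378), with no filter on low counts (adjusted p = 0.000672, edgeR) and without GalNAc-siNC mouse 2 (adjusted p = 0.0265, edgeR). Cebpd overlaps Spidr on the opposite strand by 562 bases, and Spidr had between 90 and 149 counts per library, so its value is uncertain.

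**Figure D3:**
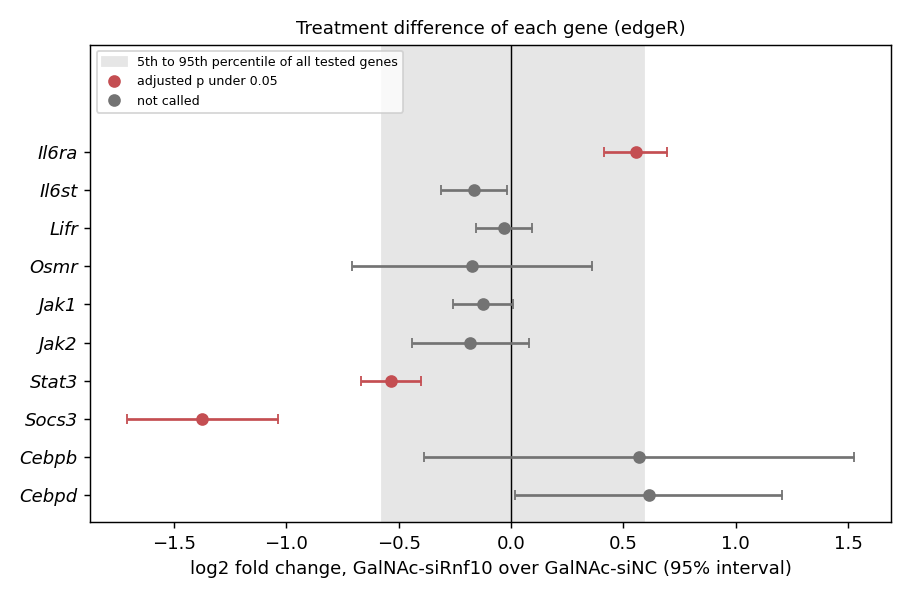
Log2 fold change of GalNAc-siRnf10 over GalNAc-siNC (x axis) with its 95% interval for each of the 10 genes, in red where the adjusted p was under 0.05. The grey band holds the middle 90% of all tested genes, from -0.575 to 0.591, and Socs3 at -1.37 was the only called gene of the 10 outside it.

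The spread within groups was itself uneven. In 8 of the 10 genes, Il6ra and Osmr excepted, the SD was smaller in the GalNAc-siRnf10 group, as it was in 66.2% of all tested genes. The coefficient of variation of Socs3 was 24.0% with GalNAc-siNC and 2.83% with GalNAc-siRnf10, and that of Cebpb was 40.3% and 6.45%. Among the GalNAc-siNC-treated mice, Socs3, Cebpb and Cebpd shared 1 order, with mouse 2 highest, mouse 3 between and mouse 1 lowest. Of all tested genes 20.4% had this order, but 47.5% of the 10% richest in G and C and 5.05% of the 10% poorest in them. Socs3 (58.7% G and C) and Cebpb (67.2%) are in the richest 10%, and Cebpd (51.6%) is not. The other 7 genes were highest in mouse 1. The part of base composition in this order was not tested. With base composition and length corrected for in edgeR, a step added once the data had been seen, the log2 fold changes were -1.28 for Socs3, -0.46 for Stat3 and 0.60 for Il6ra, and all 3 still passed the test.

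Levels of different genes were compared per kilobase of gene length. In the GalNAc-siNC group, Cebpb stood highest at 1940 ± 781 normalized counts per kilobase, followed by Lifr at 1481 ± 108, and the values of this pair overlapped between mice. Stat3 followed at 543 ± 32.9, Jak1 at 477 ± 22.4 and Il6st at 394 ± 32.8, with no overlap among these 3. Socs3 at 336 ± 80.4 overlapped with Il6st. Il6ra at 168 ± 2.56, Jak2 at 96.3 ± 18.2, Cebpd at 46.8 ± 16.4 and Osmr at 5.32 ± 0.997 came last, each below the whole range of the gene before it (SD, n = 3 mice). The mRNA of the chain that binds IL-6 was thus scarcer than that of the shared chain, and Lifr mRNA was far more abundant than either. In the GalNAc-siRnf10 group the order was kept but for a pair of swaps, with Jak1 (438 ± 6.81) above Stat3 (376 ± 2.98) and Il6ra (246 ± 6.19) above Socs3 (129 ± 3.66).

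By the root mean square difference of centred log2 values over the 6 mice, the genes whose pattern was nearest to that of Socs3 were Myc (0.145), Rnf10 (0.148), Tchh (0.154), Orm2 (0.156) and Isyna1 (0.159). They were taken from 10944 genes that averaged 50 normalized counts or more, whose median difference was 0.713. Stat3 ranked 409th by this measure with a difference of 0.466, and the other 8 genes ranked 2869th or lower. All 6 points of each gene share the same libraries, so this is a description only.

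Most ligand genes of the family had few counts in liver. Of 9 such genes, 7 did not pass the filter, and they had at most 11 counts in any library. Il6 itself had 4 counts in GalNAc-siRnf10-treated mouse 1 and 0 in the other 5 mice, and Osm had 0 in all 6. Clcf1 had a log2 fold change of -1.05 on 9 to 36 counts per library (adjusted p = 0.108, edgeR), and Ctf1 of -0.08 on 41 to 84 counts per library.

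Other receptor chains and the sheddases that release the IL-6 receptor from the cell surface were not called. The log2 fold changes of the 5 such genes tested lay between -0.20 (Cntfr) and 0.16 (Il11ra1, the IL-11 receptor chain), with -0.09 for Adam10, 0.03 for Adam17 0.03 for Adam17 and -0.09 for Il27ra. Adam17 overlaps Iah1 on the opposite strand, which had at least 2163 counts, so its value is uncertain. With the GC content and length correction, Il11ra1 passed the test at 0.25 (adjusted p = 0.0238, edgeR).

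Among the other JAK and STAT genes, 4 of the 7 tested fell and none rose. This was 57.1% called, against 14.0% of all tested genes. Stat5a had 519, 643 and 519 normalized counts with GalNAc-siNC and 347, 357 and 319 with GalNAc-siRnf10 (log2 fold change -0.71, adjusted p = 0.000287, edgeR). Its neighbour Stat3, which overlaps it by 72 bases on the opposite strand, had at least 3167 counts, so the value of Stat5a is uncertain. Stat5b, the STAT that carries growth hormone signals in liver, had a log2 fold change of -0.35 (adjusted p = 0.00214), and Jak3 of -0.86 (adjusted p = 0.000186, edgeR). Stat2, which acts in interferon signalling, had a log2 fold change of -0.24 (adjusted p = 0.0373, edgeR) and lost its call without GalNAc-siNC mouse 2 and without any 1 of the GalNAc-siRnf10-treated mice. Stat6 and Tyk2 were not called.

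Other inhibitors of cytokine signals were mostly not called. Of the 21 SOCS, PIAS, phosphatase and adaptor genes tested, 1 rose and 4 fell, which was 23.8% called against 14.0% of all tested genes. Socs2, a feedback inhibitor of the growth hormone receptor, rose from 555, 447 and 361 normalized counts with GalNAc-siNC to 900, 806 and 840 with GalNAc-siRnf10. On the log2 scale this was a change of 0.90 ± 0.128 (standard error) with an adjusted p of 0.000272 (edgeR), opposite in sign to that of Socs3. Cish, another STAT5-induced inhibitor of the same family, had 1055, 1099.5 and 1017 with GalNAc-siNC and 519, 460 and 468 with GalNAc-siRnf10 (log2 fold change -1.13, adjusted p = 6.77e-08, edgeR). The SOCS family thus split, with Socs2 higher and Socs3 and Cish lower, and none of the other 5 SOCS genes called. Pias3, an inhibitor of STAT3, had a log2 fold change of -0.41, Pias4 of -0.38 and Ptpn1 of -0.25, with adjusted p-values from 0.036 to 0.0424 (edgeR). Only Socs2 and Cish, 2 of the 21, were called with the replicate number as a block, with the GC content and length correction, without GalNAc-siNC mouse 2, or without any 1 of the GalNAc-siRnf10-treated mice. None of Ptpn11, Grb2, Gab1, Shc1 and Sos1, which link the receptor to other kinases, was called.

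Of the other C/EBP genes, 1 of 5 passed the test, a share of 20.0% beside the 14.0% of all tested genes. Cebpg, a family member without an activation domain, rose, with a log2 fold change of 0.26 (adjusted p = 0.0226, edgeR), but it lost its call without any 1 mouse other than GalNAc-siNC mouse 1. Cebpa, the main C/EBP factor of the resting liver, had a log2 fold change of -0.16, which became -0.30 and passed the test without GalNAc-siNC mouse 1 (adjusted p = 1.5e-05, edgeR). Cebpe, Cebpz and Ddit3 had log2 fold changes of 0.27, 0.03 and 0.13. Ddit3 overlaps Mars on the opposite strand, which had at least 1394 counts per library, so its value is uncertain.

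The positive acute phase genes, which STAT3 and C/EBP factors induce, were lower nearly throughout. Of 27 such genes, all of which were tested, 25 fell and none rose, with a median log2 fold change of -0.81. The groups did not overlap in any of the 27. Over all tested genes, 14.0% were called, 7.28% lower, and the groups did not overlap in 32.8%. Lcn2, which encodes the iron-siderophore binder lipocalin 2, had a log2 fold change of -1.44, Orm2 (an orosomucoid) of -1.30, Saa2 of -1.29, Saa3 of -1.15, Steap4 of -1.09 and Saa1 of -1.08, with adjusted p-values from 2.46e-11 to 0.0221 (edgeR). Reads of Saa1 and Saa2, which are near copies, could be shared between them. The same could hold for Orm2 and Orm1, both 775 bases long, and Orm1 had a log2 fold change of -0.685. Such sharing was not tested. Saa1 lost its call with no filter on low counts, without GalNAc-siNC mouse 2 and without any 1 of the GalNAc-siRnf10-treated mice. Steap4, whose promoter stretch is printed above, had 11971, 10648 and 10781 normalized counts with GalNAc-siNC and 5262, 5294 and 5137 with GalNAc-siRnf10. The exceptions were Crp, with a log2 fold change of -0.06, and Hamp, which encodes the iron hormone hepcidin, with 0.39 (adjusted p = 0.0948, edgeR), both named after their values were seen. The 3 values of Hamp with GalNAc-siRnf10 were all above those with GalNAc-siNC. Hamp carries the STAT motif, as printed above, but so do Apcs, Fga, Fgb, Itih4 and Steap4, all called lower. The part of the motif in these values was not tested.

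Regulators that STAT3 induces in the nucleus gave a mixed picture. Of 12 tested, 6 fell and 1 rose, 7 calls in all, of which 4 were made without GalNAc-siRnf10 mouse 1. The 7 calls were 58.3% of the list, against 14.0% of all tested genes. Myc had 1112, 1342 and 1223 normalized counts with GalNAc-siNC and 410, 460 and 486 with GalNAc-siRnf10 (log2 fold change -1.44, adjusted p = 1.45e-08, edgeR), close to that of Socs3. Junb, an AP-1 subunit, had a log2 fold change of -0.87, the kinase gene Pim1 of -0.69, the NF-kB cofactor gene Bcl3 of -0.59 and the IL-4 receptor gene Il4ra of -0.43. Pim3, a kinase of the same family as Pim1, rose from 1813, 2246 and 2022 to 3003, 2837 and 2867, a log2 fold change of 0.52 (adjusted p = 0.000175, edgeR). Junb had an adjusted p of 0.0461 and lost its call in 5 of the 6 fits that left out a mouse, in all but that without GalNAc-siNC mouse 1. Mcl1, Bcl6, Hif1a, Ccnd1 and Tnfaip3 were not called.

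**Figure D4:**
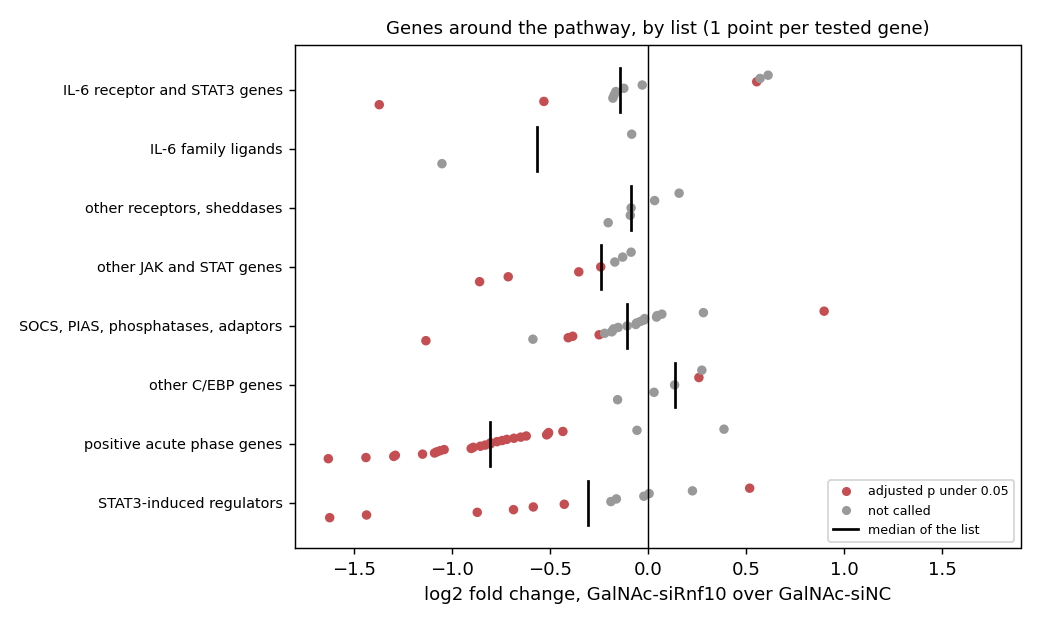
Log2 fold change of GalNAc-siRnf10 over GalNAc-siNC (x axis) of each tested gene in the 10 pathway genes and in 7 lists around them, in red where the adjusted p was under 0.05, with a black line at the median of each list. The acute phase list, with a median of -0.81 and 25 of 27 genes called lower, stands left of the others.

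Markers of other liver cells and of other signals were read beside these results. Over all tested genes, 6.71% were called higher and 7.28% lower. Summed Kupffer cell and macrophage markers were between 6594.5 and 7982 normalized counts with GalNAc-siNC and between 7309 and 7713 with GalNAc-siRnf10, and none of the 10 was called. Neutrophil markers summed to at most 127 in any mouse, and Ly6g had at most 2 counts. The sums lay between 97.5 and 127 with GalNAc-siNC and between 62.8 and 67.8 with GalNAc-siRnf10, and of the 8 markers 2 were tested and S100a9 fell (log2 fold change -1.43). Lymphocyte markers summed to between 163 and 178 and to between 135 and 172, with none of 3 tested genes called. Of 8 endothelial markers Clec4g and Lyve1 rose, of 8 stellate cell markers Dcn and Reln rose, and of 5 tested cholangiocyte markers Spp1 fell. Log2 fold changes below 0, none of them called, were found in 2 of the 8 endothelial and 4 of the 8 stellate cell markers. The median log2 fold change was 0.11 for the endothelial and -0.03 for the stellate cell list. The summed markers ran from 2890 to 3006 against 3056 to 3259 for endothelial cells. They ran from 3588 to 3705 against 4176 to 4198 for stellate cells, and from 2037 to 2079 against 1122 to 1154 for cholangiocytes. Dcn alone had mean normalized counts of 1457 with GalNAc-siNC and 1865 with GalNAc-siRnf10, and Spp1 alone 1836 and 982. Of 10 hepatocyte markers, 6 rose and none fell, Tat (log2 fold change 1.41) and Ttr (0.66) with the largest differences. The other 4, Apoa1 (0.08), Apob (-0.11), Asgr1 (0.11) and Hnf4a (0.08), were not called, and the median of the list was 0.39. The part of these cells in the differences above was not tested. Glucocorticoid-induced genes moved with the groups too: of 9 tested, 6 rose, led by Lpin1 (log2 fold change 1.94) and Tsc22d3 (1.89), and 1 fell. Tat and Per1 stand in more than 1 of these lists. Of 14 clock genes tested, 5 rose, led by Per1 (1.74) and Ciart (1.29), and 1 fell. The part of glucocorticoids or of the time of day in the values of Il6ra, Stat3 and Socs3 was not tested.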

How the data were processed

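Liver RNA of 6 mice was sequenced from stranded mRNA libraries. According to the methods and the labels, the authors used HISAT2 to map paired-end reads to GRCm38, and the deposited values are raw counts for each gene beside its length in bases. The counting tool, annotation release and strand setting are not given in the sources used here. The authors tested differences with DESeq2. The test here was that of edgeR 4.0.16 (R 4.3.3), with filterByExpr, TMM normalization and a robust quasi-likelihood F-test with treatment as the only term and Benjamini-Hochberg adjustment over all tested genes, and 0.05 was the threshold on the adjusted p. The common dispersion came to 0.00861. Normalized counts are TMM-scaled to the mean library, and intervals are 95%. The fit was checked on simulated counts. Symbols came from a reference table of gene names (346 identifiers had none), GC content from GENCODE M21 transcripts, exon overlaps from the deposited coordinates, and promoters from RefSeq (GRCm38.p6). Python 3.11.15, scipy 1.17.1 and matplotlib 3.10.9 were used for the rest.

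The 10 genes and the lists were chosen with earlier results of these data known, and the ratios between genes were chosen after seeing the data. Named beside the 10 genes were the called genes of each pathway list (at most 6, by size of change, averaging 50 normalized counts or more), all genes of lists with up to 5 tested, the 2 most changed called genes of marker, clock and glucocorticoid lists, and the 5 genes nearest to Socs3; further genes are named only as members of a count. Alternatives were RLE and upper-quartile normalization, limma 3.58.1 (voom with sample weights), DESeq2 1.42.0, a filter of 10 counts in each mouse or none, the replicate number as a block, stricter thresholds, leaving out each mouse, and a GC content and length correction (splines with 5 degrees of freedom, added after seeing the data). Some genes of the lists are not reported here by name.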

Additional observations from a re-analysis of the deposited data

How the results depend on the processing

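Il6ra, Stat3 and Socs3 kept their direction and their call in all 15 alternatives run, with log2 fold changes from 0.54 to 0.60, from -0.58 to -0.45 and from -1.52 to -1.17. Between 3 and 4 of the 10 genes were called with a mouse left out. Cebpd was called with DESeq2 (0.61), with no filter (0.61) and in a fit without 1 mouse (range 0.36 to 0.87), and Cebpb in 1 fit without a mouse (range 0.28 to 0.86). The ranges without a mouse crossed 0 for Lifr (-0.078 to 0.026) and Osmr (-0.334 to 0.05), neither of them called. The number of called genes, 1965, became 1042 at an adjusted p under 0.01, 823 when a log2 fold change of 0.5 or more in size was also required, and between 1053 and 2864 with a mouse left out, 1053 and 1128 being the values without a GalNAc-siRnf10-treated mouse and 2864 that without GalNAc-siNC mouse 1. With a mouse left out, called genes numbered 2 to 6 of the SOCS, PIAS, phosphatase and adaptor list, 0 to 2 of the other C/EBP genes, 3 to 4 of the other JAK and STAT genes, 4 to 7 of the STAT3-induced regulators and 20 to 26 of the acute phase genes. The GC content and length correction called 1 of the other receptors and 2 of the SOCS, PIAS, phosphatase and adaptor genes, with or without the block. Of single genes named, uncalled ones changed sign: with a mouse left out Ctf1 ran from -0.233 to 0.119, Il27ra from -0.396 to 0.069, Adam17 from -0.024 to 0.07 and Cebpz from -0.039 to 0.109, and with the correction Ddit3 was -0.014, or -0.016 with the block. The cause of these changes was not tested. Without division by length, Lifr ranked first by level in the GalNAc-siNC group, Stat3 2nd, Il6st 3rd, Jak1 4th and Cebpb 5th. Il6ra then ranked 6th and Socs3 7th, and the crossings of Stat3 with Jak1 and of Socs3 with Il6ra were not seen.

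The labels number the mice 1 to 3 in both groups, but nothing ties the same-numbered mice, and their deviations from the group means correlated by -0.000993, 0.0272 and -0.0337. With the replicate block 1816 genes were called, and 2 rather than 5 of the SOCS, PIAS, phosphatase and adaptor genes; no call among the 10 genes changed. With 3 mice per group, the wide intervals of Cebpb, Cebpd and Osmr limit what can be said of them.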
